A study of Mus musculus with 13 samples.

Results

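Genes for 10 components of the Wnt pathway were followed through mouse heart development. The genes were 4 Wnt ligands (Wnt2, Wnt5a, Wnt5b, Wnt11), 2 R-spondins (Rspo1, Rspo3), 2 secreted frizzled-related proteins (Sfrp1, Sfrp2) and 2 genes used as readouts of canonical Wnt signalling (Axin2, Lef1). They were chosen by name and are 10 of the 27998 genes in the files. All animals were wild-type C57Bl/6J mice. Single-cell suspensions were made from E8.5 and E10.5 embryos after the head and limbs were removed, and from hearts at E12.5, E14.5 or E16.5 or on the third day after birth (P3). Messenger RNA 3′ ends were counted as unique molecular identifiers (UMIs) per cell barcode on a droplet platform. The 13 sample records gave 10 matrices, with 2 libraries at each of E10.5, E12.5, E14.5 and E16.5. E8.5 is represented by 1 library, and P3 by 1 matrix pooled from its records, so neither stage entered a test, and replicate 1 at E16.5 was pooled from 2 sample records. The labels do not say that replicate libraries came from separate animals. P-values for stage within a class measure the spread between libraries, which may be technical. Those of fits with library as a term measure the spread left among classes within libraries, which may be technical as well. No genotype was compared, and the E8.5 and E10.5 embryos hold many tissues beside the heart.

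Wnt ligands are secreted, lipid-modified proteins that bind Frizzled receptors. In the canonical branch they stabilise beta-catenin, which acts with TCF and LEF factors on target genes, whereas Wnt5a, Wnt5b and Wnt11 act mostly through beta-catenin-independent routes that guide cell polarity and movement. R-spondins bind LGR receptors and remove the ligases ZNRF3 and RNF43 from the membrane, which keeps more Frizzled at the surface, and secreted frizzled-related proteins bind Wnt ligands outside the cell. In the developing heart, Wnt signals are known for roles in the outflow tract, the epicardium and the atrioventricular canal, whose slowly conducting muscle carries Tbx3 and Bmp2.

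Barcodes with at least 2000 UMIs numbered 80741 in all. They were assigned to 5 classes by genes that are not among the 10, and barcodes that passed the gates of more than 1 lineage were left out. Cardiac muscle barcodes were taken by Tnnt2, the cardiac troponin T gene, and divided into those with at least 1 UMI of Tbx3, a transcription factor gene of the conduction system and atrioventricular canal, and those without Tbx3 that passed a gate on Myl2, the ventricular myosin light chain. Tnnt2 barcodes that passed neither gate, 241 to 416 per heart library from E12.5 to E16.5, are outside the 5 classes and were not tested. The other classes were taken by Cdh5 (vascular endothelial cadherin), Col1a1 (type I collagen) and Upk3b (a mesothelial membrane protein). The 5 classes held 34628 barcodes. In the 6 heart libraries from E12.5 to E16.5 they held 2151 to 3531 Tnnt2 barcodes with Myl2, 60 to 293 Tnnt2 barcodes with Tbx3, 335 to 893 Cdh5 barcodes, 166 to 554 Col1a1 barcodes and 36 to 293 Upk3b barcodes per library.

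In these hearts the classes carried markers of their lineages, with some lists shared between classes. Levels are given as counts scaled to depth (CPM), the UMIs of a gene per 1000000 UMIs of the class, summed over its barcodes in 1 library. The summed level of 6 endothelial genes was 1492 to 2166 CPM in Cdh5 barcodes and at most 62.1 in the other classes. The summed level of 6 epicardial genes was 683 to 1919 CPM in Upk3b barcodes, against 33.4 to 77.3 in Col1a1 barcodes, and 8 canal and conduction genes summed to 244 to 500.1 in Tnnt2 barcodes with Tbx3 against 18.7 to 50.01 in those with Myl2. The Tbx3 class also held atrial muscle genes, 5 of which summed to 10857 to 21056 CPM, and ventricular genes, 4 of which summed to 7396 to 11180 against 8889 to 13829 in the Myl2 class. In Tnnt2 barcodes with neither Tbx3 nor Myl2 the 5 atrial genes summed to 34006 to 50865. The 8 canal and conduction genes summed to 82.6 to 265.5 there, above the Myl2 class and overlapping the Tbx3 class. Mesenchymal genes did not divide the Col1a1 and Upk3b classes, since 8 of them summed to 2700.4 to 9699 CPM in Col1a1 and to 2105 to 10238 in Upk3b barcodes. At E8.5 and E10.5 the mesothelial gene Msln was at 0 to 0.273 CPM in Upk3b barcodes, and they are named by their gate gene alone.

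Depth was 67141166 to 259041468 UMIs per matrix. Between 27 and 264 barcodes of the 36 library pairs examined were shared, 0.714 to 1.326 times the number expected by coincidence. Since only 3′ ends were counted, levels are compared between classes and stages and not between genes. As measures of free RNA the text gives the level in low-count barcodes of 1 to 100 UMIs, and that in 8 to 55 macrophage barcodes per heart library. For some genes it also gives the level in globin barcodes, with over 50% of their UMIs from haemoglobin genes. Wnt2, Wnt5b, Wnt11 and Rspo3 were at 0 in macrophage barcodes in all 6 heart libraries.

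Rspo1 had the widest gap of the 10 genes between its leading class and the next. Rspo1 (ENSMUSG00000028871, GRCm38 chromosome 4, 124986430 to 125009099, plus strand) encodes an activator of canonical signalling. Its level in Upk3b barcodes was 173 and 199 CPM (E12.5), 418 and 421 (E14.5), 313 and 389 (E16.5), 340.5 (P3). The Col1a1 class was next, with 1.65 to 13.1 CPM in the 6 libraries, and the groups did not overlap (51.0-fold between the means). Rspo1 stayed at 0 to 0.829 in Cdh5 barcodes, 0.045 to 0.222 in Tnnt2 barcodes with Myl2 and 0 to 0.987 in those with Tbx3, all under its level of 2.41 to 5.63 in low-count barcodes, so these levels are read as background. Thinned to 2000 UMIs per barcode, 31.2 to 55% of Upk3b barcodes and 0% of macrophage barcodes held a Rspo1 UMI. Unthinned, the share in Upk3b barcodes was 74.8 to 97.2%, at median depths of 9935 to 18158 UMIs against 8036 to 22888 in macrophage barcodes.

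Rspo3 had a different source. Rspo3 (ENSMUSG00000019880, chromosome 10, 29452416 to 29535867, minus strand) encodes a second R-spondin. In Tnnt2 barcodes with Tbx3 its level was 249.5 and 210.2 CPM (E12.5), 219 and 217 (E14.5), 114 and 75.5 (E16.5), 16.8 (P3). Col1a1 barcodes followed with 81.1 and 61.0, 93.7 and 84.1, and 29.4 and 42.8 at the same embryonic stages. The Tbx3 class was above the Col1a1 class in each library, although the ranges over the 6 libraries overlapped because both fell by E16.5. Tnnt2 barcodes with Myl2 held 2.62 to 23.6 CPM and Cdh5 barcodes 0.438 to 2.32. A Rspo3 UMI was present in 10.0 to 27.7% of Tbx3-class barcodes at 2000 UMIs (19.2 to 44.1% unthinned) and in 0% of macrophage barcodes, whose small numbers allow Rspo3 shares of up to 6.49% to 36.9% by library (exact binomial 95% limits, counting error only).

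**Figure D1:**
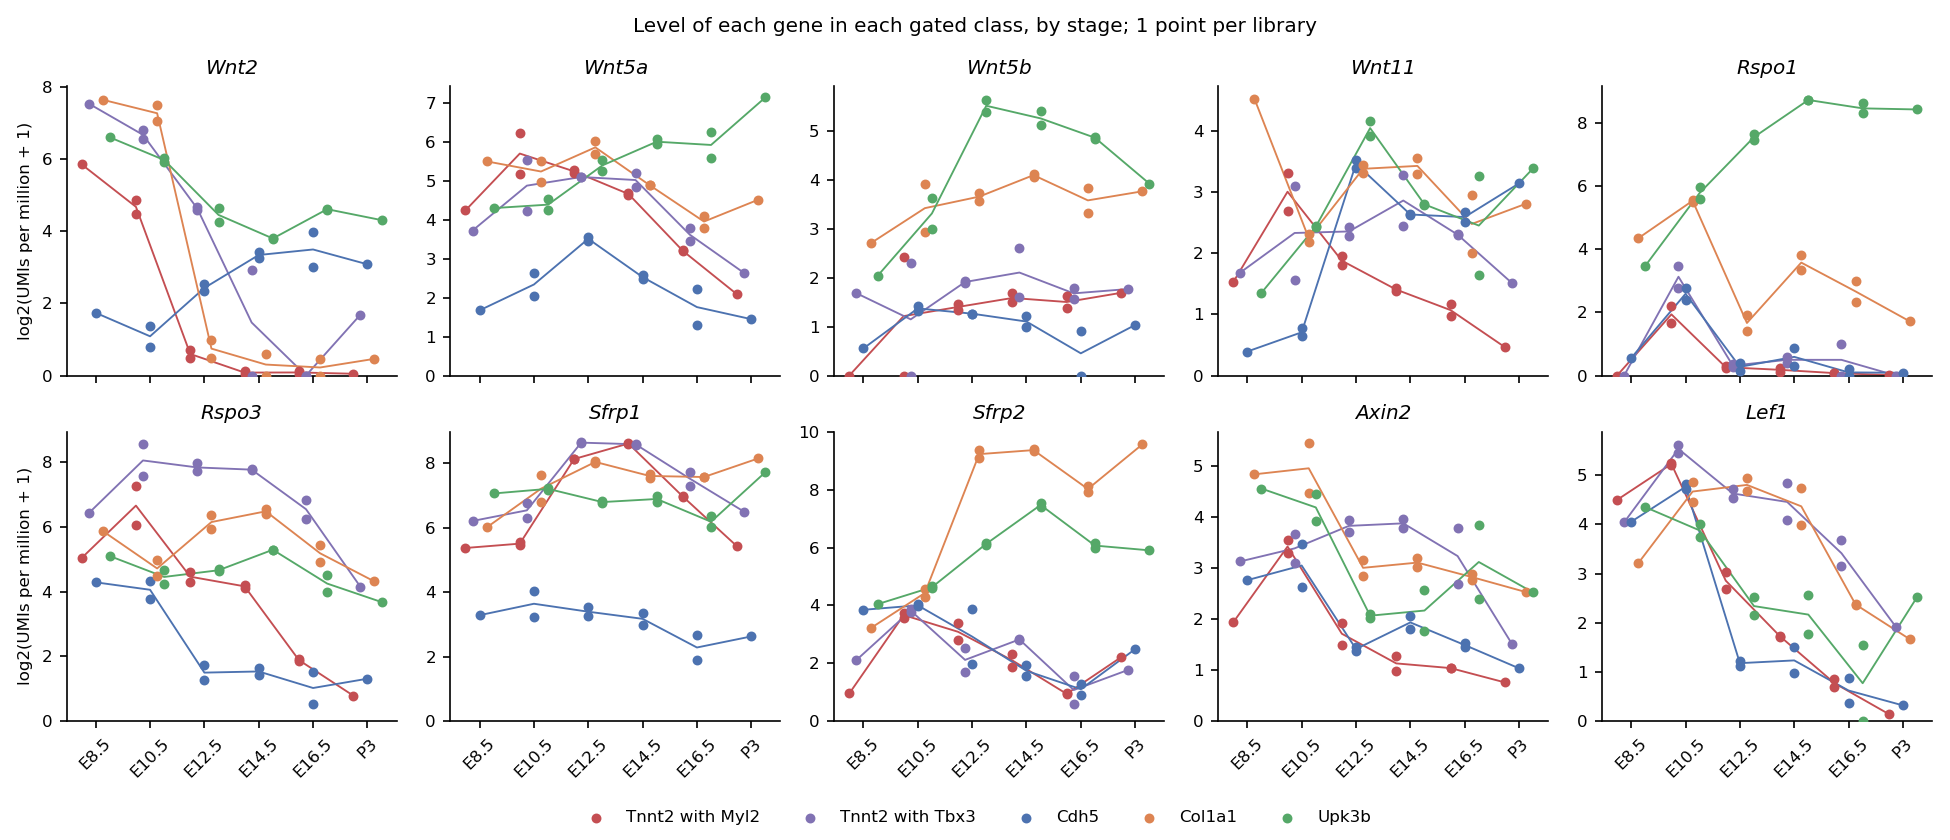
Level of each of the 10 genes, as log2(CPM + 1), against stage for the 5 gated classes; each point is 1 library, and E8.5 and P3 have 1 point per class. Rspo1 reaches 173 to 421 in Upk3b barcodes of E12.5 to E16.5 hearts, and in the same hearts Rspo3 is highest in Tnnt2 barcodes with Tbx3 and Sfrp2 in Col1a1 barcodes.

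Among the ligands, Wnt2 (ENSMUSG00000010797, chromosome 6, 17988940 to 18030585, minus strand), a canonical ligand of the early inflow region, was at low levels in hearts. In Upk3b barcodes it was at 18.2 and 24.3 CPM (E12.5), 12.8 and 13.2 (E14.5), 23.8 and 23.4 (E16.5), and in Cdh5 barcodes at 4.78 and 4.04, 8.60 and 9.78, and 7.15 and 14.7. Tnnt2 barcodes with Tbx3 held 23.0 and 24.7 (E12.5), 6.68 and 0 (E14.5), and 0 in both E16.5 libraries. Col1a1 barcodes (0 to 0.993) and Tnnt2 barcodes with Myl2 (0.0303 to 0.64) lay below or within the low-count level of 0.663 to 2.60. The Cdh5 and Col1a1 classes did not overlap in Wnt2, and the Upk3b and Tbx3 classes did.

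Wnt5a (ENSMUSG00000021994, chromosome 14, 28504750 to 28527448, plus strand) was spread over muscle, Col1a1 and Upk3b barcodes. Its level in Upk3b barcodes was 36.8 and 45.5 CPM (E12.5), 59.9 and 66.0 (E14.5), 75.1 and 46.8 (E16.5), 139.5 (P3). In Col1a1 barcodes it was 50.2 and 64.2, 28.4 and 28.6, 16.2 and 12.9, and 21.8 at the same stages. Both Tnnt2 classes were at like levels, with 8.09 to 37.9 for Myl2 and 9.87 to 35.7 for Tbx3, and Cdh5 barcodes held 1.45 to 10.7. The order of the classes in Wnt5a therefore changed with stage. Over the 6 libraries Upk3b and Col1a1 barcodes overlapped, whereas at E14.5 and at E16.5 both Upk3b libraries lay above both Col1a1 libraries.

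Wnt5b (ENSMUSG00000030170, chromosome 6, 119432531 to 119544347, minus strand) also led in Upk3b barcodes. Upk3b barcodes were at 41.0 and 48.8 CPM (E12.5), 41.3 and 33.6 (E14.5), 28.5 and 27.6 (E16.5), against 9.05 to 16.51 in Col1a1 barcodes over the 6 libraries. These 2 classes did not overlap (2.84-fold between the means), and the Col1a1 class lay above the Tbx3 class (1.9603 to 5.09). Wnt5b was at 0 to 1.40 in Cdh5 barcodes and 1.53 to 2.20 in the Myl2 class, at or under its low-count range of 1.99 to 4.01. Globin barcodes held 0 to 0.449, under the Myl2 class and overlapping Cdh5 barcodes, so the measures of free RNA differ.

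Wnt11 (ENSMUSG00000015957, chromosome 7, 98835112 to 98855195, plus strand), a ligand known from the outflow tract, differed little between 4 of the classes. Its levels were 2.13 to 16.9 CPM in Upk3b barcodes, 3.02 to 10.7 in Col1a1 barcodes, 4.67 to 10.52 in Cdh5 barcodes and 3.84 to 8.66 in Tnnt2 barcodes with Tbx3, so these 4 classes overlapped. Tnnt2 barcodes with Myl2 held 0.966 to 2.86, below every library of the other classes but for the second E16.5 library in Upk3b barcodes (2.13).

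Both secreted frizzled-related protein genes were abundant, and both were found in Col1a1 barcodes. Sfrp1 (ENSMUSG00000031548, chromosome 8, 23411502 to 23449632, plus strand) was at 281 and 278 CPM in Tnnt2 barcodes with Myl2 (E12.5), 396 and 385 (E14.5), 122 and 126 (E16.5), 41.8 (P3). Tnnt2 barcodes with Tbx3 gave 396 and 400.2, 381 and 388, 213 and 157, and 89.2. Those with neither Tbx3 nor Myl2 held 259 to 373 over the 6 libraries from E12.5 to E16.5. Col1a1 barcodes varied less, with 187 to 268 in the embryonic hearts and 283 at P3. Sfrp1 was at 63.7 to 125 in Upk3b barcodes, within or below its low-count level of 90.5 to 228 but above the 0 to 14.3 of macrophage and the 1.04 to 8.11 of globin barcodes, so the measures of free RNA differ for Upk3b barcodes. Sfrp1 was at 2.69 to 10.6 in Cdh5 barcodes, under the low-count level and within the macrophage range. After thinning, 18.0 to 44.1% of Myl2-class barcodes, 7.94 to 23.8% of Upk3b barcodes and 0.489 to 1.62% of globin barcodes, red blood cells of median depth 11725 to 30528 UMIs, held a Sfrp1 UMI (61.2 to 79.1%, 52.4 to 78.4% and 1.47 to 13.8% unthinned).

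Sfrp2 (ENSMUSG00000027996, chromosome 3, 83766321 to 83774316, plus strand) belonged to the Col1a1 class, with 667 and 547 CPM (E12.5), 687 and 644 (E14.5), 245 and 278 (E16.5), 761 (P3). Upk3b barcodes were next with 62.8 to 185, without overlap (4.90-fold between the means). Sfrp2 reached at most 9.43 in the Myl2 class, 6.11 in the Tbx3 class and 13.6 in the Cdh5 class, under its low-count level of 15.9 to 48.9. These maxima were above the 0 to 2.68 of macrophage and the 0.386 to 3.97 of globin barcodes, so the measures of free RNA differ here too. A Sfrp2 UMI was found in 23.1 to 46.4% of Col1a1 barcodes and 0% of macrophage barcodes at 2000 UMIs (39.8 to 69.3% and 0 to 2.44% unthinned).

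Among the 5 classes, the readout gene Axin2 had its highest mean level in the class that led in Rspo3. For Lef1 that class and Col1a1 barcodes were alike, with means of 18.4 and 17.2 CPM and medians of 19.1 and 19.7. Axin2 (ENSMUSG00000000142, chromosome 11, 108920349 to 108950783, plus strand), a negative feedback component induced by beta-catenin, was at 14.3 and 12.1 CPM in Tnnt2 barcodes with Tbx3 (E12.5), 14.6 and 12.7 (E14.5), 5.43 and 12.7 (E16.5), 1.85 (P3). Col1a1 barcodes held 5.79 to 8.13 CPM of Axin2 in embryonic hearts, and Upk3b barcodes 2.40 to 4.91 at E12.5 and E14.5 and 13.3 and 4.25 at E16.5, from 2 to 15 UMIs per library. In the first E16.5 library the Tbx3 class thus lay below both of these classes in Axin2. Tnnt2 barcodes with Myl2 (0.968 to 2.79) and Cdh5 barcodes (1.59 to 3.15) were near the low-count level of 0.743 to 3.02. Both were above the 0 to 0.539 of globin barcodes and overlapped the 0 to 2.75 of macrophage barcodes. Outside the 5 classes, Tnnt2 barcodes with neither Tbx3 nor Myl2 held 4.47 to 11.2 CPM of Axin2. Their mean of 7.80 was above the Col1a1 mean of 6.92.

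Lef1 (ENSMUSG00000027985, chromosome 3, 131110471 to 131224356, plus strand) encodes a DNA-binding partner of beta-catenin. It was at 25.2 and 22.3 CPM in Tnnt2 barcodes with Tbx3 (E12.5), 15.9 and 27.5 (E14.5), 7.89 and 11.8 (E16.5), 2.78 (P3). Col1a1 barcodes gave 29.6 and 24.4, 25.7 and 14.9, 4.10 and 4.24, and 2.16. The Lef1 levels of these 2 classes overlapped, and Tnnt2 barcodes with Myl2 were at 5.44 and 7.13 at E12.5 and at 0.809 and 0.607 at E16.5, below the low-count level of the same libraries (6.86 and 7.99, and 1.18 and 1.10). Globin barcodes held 0 to 0.541 of Lef1 and macrophage barcodes 0 to 3.69, so the measures of free RNA differ.

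Promoters were examined for the letters of the TCF and LEF recognition core, because Axin2, Lef1 and Wnt11 were all higher in Tnnt2 barcodes with Tbx3 than in those with Myl2. RefSeq windows of 250 bases before to 50 after a start were matched for 7 of the 10 genes (13 windows, GRCm38.p6), and none matched for Wnt5a, Rspo3 or Sfrp1. The motif TCAAAG was searched on both strands (CTTTGA on the other). It was in 3 of the 13 windows and in 16% of the 32851 windows of all genes. The 3 were 1 of 4 Lef1 windows, 1 of 2 Wnt11 windows and 1 of 3 windows of Wnt5b, which did not pass between the muscle classes. The windows of Lef1 and Wnt11 that held a match and the single Axin2 window are shown 5′ to 3′ along the plus strand, with matches in capitals, for Axin2 at chr11:108920099-108920398, Lef1 at chr3:131156044-131156343, which is an internal start of the gene, and Wnt11 at chr7:98834862-98835161.
Axin2: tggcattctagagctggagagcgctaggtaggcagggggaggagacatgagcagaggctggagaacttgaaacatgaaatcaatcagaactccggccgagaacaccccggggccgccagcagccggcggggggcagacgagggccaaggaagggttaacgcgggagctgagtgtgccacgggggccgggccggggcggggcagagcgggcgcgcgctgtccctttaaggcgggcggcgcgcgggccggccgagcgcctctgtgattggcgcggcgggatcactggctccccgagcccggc
Lef1: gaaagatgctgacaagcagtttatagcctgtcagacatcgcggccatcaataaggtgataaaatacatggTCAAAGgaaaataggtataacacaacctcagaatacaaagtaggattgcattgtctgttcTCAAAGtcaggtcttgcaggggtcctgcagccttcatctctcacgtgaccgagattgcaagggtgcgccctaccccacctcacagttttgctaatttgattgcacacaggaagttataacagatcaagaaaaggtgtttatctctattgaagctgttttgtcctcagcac
Wnt11: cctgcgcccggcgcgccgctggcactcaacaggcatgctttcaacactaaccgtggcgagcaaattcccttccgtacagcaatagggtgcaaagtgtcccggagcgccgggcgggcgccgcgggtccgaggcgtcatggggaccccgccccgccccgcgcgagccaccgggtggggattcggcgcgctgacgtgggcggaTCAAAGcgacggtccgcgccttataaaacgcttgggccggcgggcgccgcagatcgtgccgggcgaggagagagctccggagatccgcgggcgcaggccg
The Lef1 window held 2 matches, the first at base 71, the Wnt11 window held 1 at base 201, and the Axin2 window held 0. A match describes these letters and is not evidence of binding.

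Differences between classes over all 3 heart stages were tested by setting each class against the average of the other 4, with edgeR's quasi-likelihood test and Benjamini-Hochberg adjustment. Over 30 class sums and with library as a term, 13632 genes were fitted and 11425 were tested in the single class contrasts. Wnt2 could not be tested, because Tnnt2 barcodes with Tbx3 held 0 of its UMIs at E16.5. With library sums this deep, most genes differ between lineages, so the size of a difference says more than its call.

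Upk3b barcodes were higher than the other classes for 5 of the 9 genes tested and lower for 0, where 26% of all genes tested were higher, 29.7% lower and 55.6% either. The 5 were Rspo1 (log2 fold change 9.22, SE 0.10, adjusted p = 6.23e-46, edgeR), Wnt5b (3.66, SE 0.17), Sfrp2 (3.16, SE 0.23), Wnt5a (1.76, SE 0.10) and Wnt11 (0.91, SE 0.27). Since 3 of the 4 other classes were at background in Rspo1, the size of its fold change depends on background levels. Lef1 (-0.79, adjusted p = 0.124), Rspo3 (0.37, adjusted p = 0.0855), Axin2 (0.34) and Sfrp1 (-0.12) did not pass. The Wnt11 difference rested on the first E16.5 library, and without it the log2 fold change was 0.28 (adjusted p = 0.703). Leaving out that library also left only 2 calls in this class, in part because fewer of the genes could then be tested.

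Col1a1 barcodes were higher for all 9 genes tested and lower for 0, against 35.7% higher, 34.7% lower and 70.4% in either direction among all genes. Sfrp2 differed most (log2 fold change 5.98, SE 0.09, adjusted p = 1.82e-41, edgeR), with 3 of the other classes under its low-count level. Lef1 (1.95, SE 0.17), Rspo1 (1.85, SE 0.26), Rspo3 (1.75, SE 0.09) and Wnt5b (1.63, SE 0.12) followed. Sfrp1 (1.21), Axin2 (0.81), Wnt11 (0.57) and Wnt5a (0.50) were smaller. The average of the other classes includes Cdh5 barcodes, which were lower than the rest for 8 of the 9 genes (38.2% of all genes were lower and 75.6% differed). In Cdh5 barcodes the largest deficits were those of Sfrp1 (-4.80, SE 0.07) and Rspo3 (-4.67, SE 0.18), and Wnt11 alone was higher (0.45, SE 0.13, adjusted p = 0.00269).

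Tnnt2 barcodes with Myl2 were higher for 2 of 9 genes and lower for 7 (46.2% and 35.5% of all genes, 81.8% in either direction). Sfrp1 was higher (1.81, SE 0.03) and so, slightly, was Wnt5a (0.17, SE 0.05), whose sign turned under the study's mitochondrial ceilings (-0.03) and after thinning (-0.24). Tnnt2 barcodes with Tbx3 were higher for 4, lower for 3 and past the test for 7 of 9, against 31.4%, 33.5% and 64.8% of all genes. The 4 were Rspo3 (3.65, SE 0.10, adjusted p = 1.22e-31, edgeR), Lef1 (2.35, SE 0.23), Sfrp1 (1.89, SE 0.05) and Axin2 (1.70, SE 0.19), and the 3 lower genes were Sfrp2 (-3.22), Rspo1 (-2.74) and Wnt5b (-0.99).

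**Figure D2:**
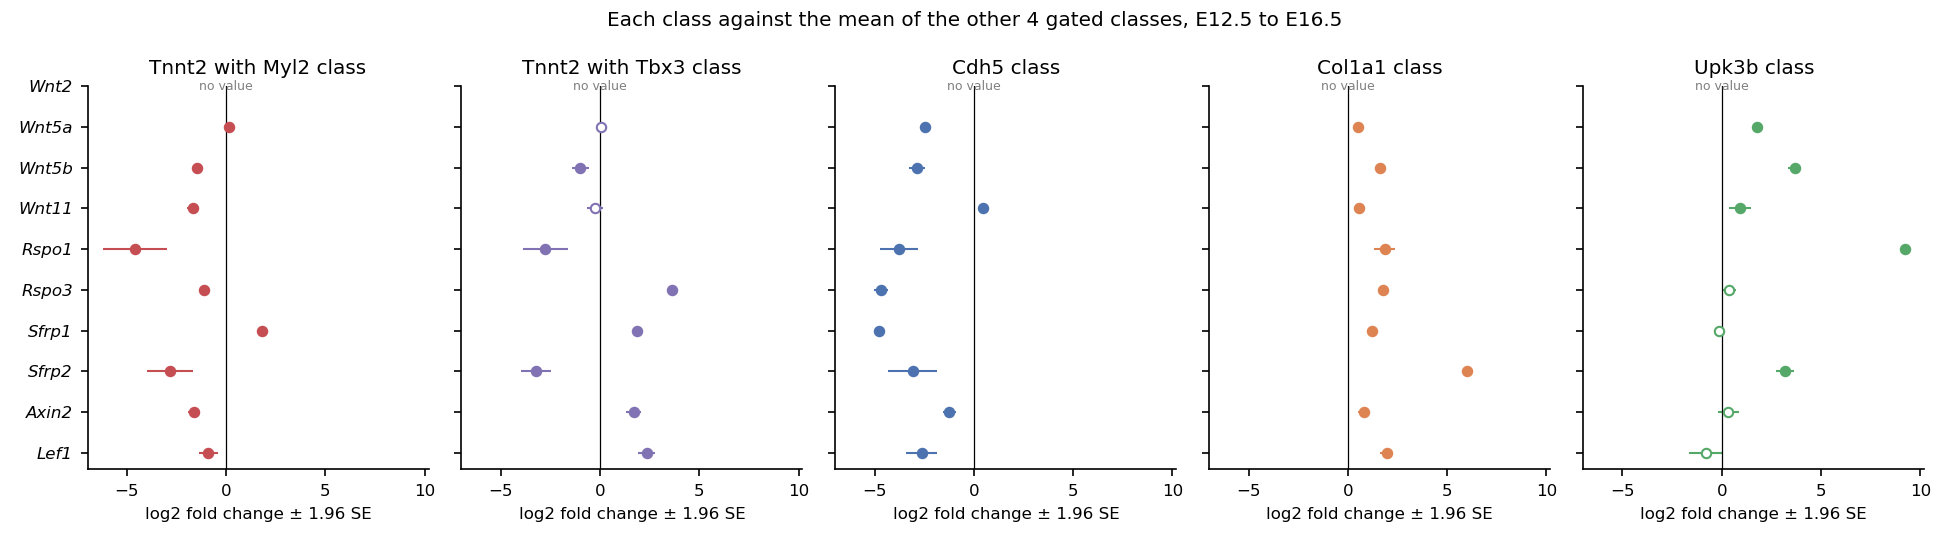
Log2 fold change of each class against the average of the other 4 (points), from edgeR over 30 class sums of 6 heart libraries, for the genes that could be tested. Bars are approximate 95% intervals, taken from the SE by a normal approximation. Rspo1 in Upk3b barcodes (9.22) and Sfrp2 in Col1a1 barcodes (5.98) stand farthest to the right, both against an average in which 3 classes were under the low-count level.

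Of the 9 genes tested between the muscle classes, Rspo3 differed most. Set directly against Tnnt2 barcodes with Myl2, those with Tbx3 were higher for 4 of 9 genes tested and lower for 0, where 11.8% of 12427 genes were higher, 29.6% lower and 41.4% either. Rspo3 was higher by 3.80 on the log2 scale (SE 0.10, adjusted p = 5.26e-31, edgeR), Axin2 by 2.65 (SE 0.21), Lef1 by 2.58 (SE 0.22) and Wnt11 by 1.14 (SE 0.24, adjusted p = 0.000144). The median over all genes was -0.11. The Tbx3 class was not gated on Myl2, so these classes differ in both gates, whose parts were not tested apart. Tnnt2 barcodes with neither Tbx3 nor Myl2 held 4.47 to 11.2 CPM of Axin2. That range was above the Myl2 class (0.968 to 2.79) and overlapped the Tbx3 class (5.43 to 14.6). Lef1 (1.63 to 7.39) and Rspo3 (0.725 to 44.2) in those barcodes lay below the Tbx3 class, and Wnt11 (1.16 to 3.99) overlapped both classes. Wnt2, which could not be tested, had a mean of 9.07 CPM in the Tbx3 class and 0.212 in the Myl2 class over the 6 hearts. For Sfrp1 the approximate 95% interval of the difference was -0.02 to 0.14, and for Wnt5a -0.30 to 0.11. Rspo1 (1.46, adjusted p = 0.122), Wnt5b (0.37) and Sfrp2 (-0.30) did not pass.

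Rspo3 was highest in Tnnt2 barcodes with the most Tbx3 UMIs, Myl2 disregarded. With 0 Tbx3 UMIs its levels in the 6 heart libraries were 20.1, 25.6, 16.6, 16.3, 2.47 and 3.05 CPM. With 3 or more they were 545, 588, 595, 768, 408 and 315, from 44, 72, 40, 29, 10 and 11 barcodes. Every library had its highest Rspo3 level in the group with 3 or more UMIs, including both at E16.5, where the level of the whole class was lowest. The steps between were uneven, since the second E16.5 library went from 30.9 at 1 Tbx3 UMI to 14.3 at 2 (8 barcodes), and the first E12.5 library was at 535 with 2. Axin2 in the same order was 2.499, 3.63, 1.88, 1.21, 1.60 and 1.70 with 0 Tbx3 UMIs, and 27.5, 14.02, 25.1, 19.6, 8.86 and 35.6 with 3 or more. Lef1 was 5.66, 6.90, 2.44, 2.37, 0.875 and 0.902 against 35.8, 20.7, 32.1, 51.3, 13.3 and 23.8. Sfrp1 showed no such step, with 136 to 386 at 0 Tbx3 UMIs and 190.5 to 417 at 3 or more. The barcodes are cells of the same libraries and the counts per cell depend on depth, so these values are descriptions.

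**Figure D3:**
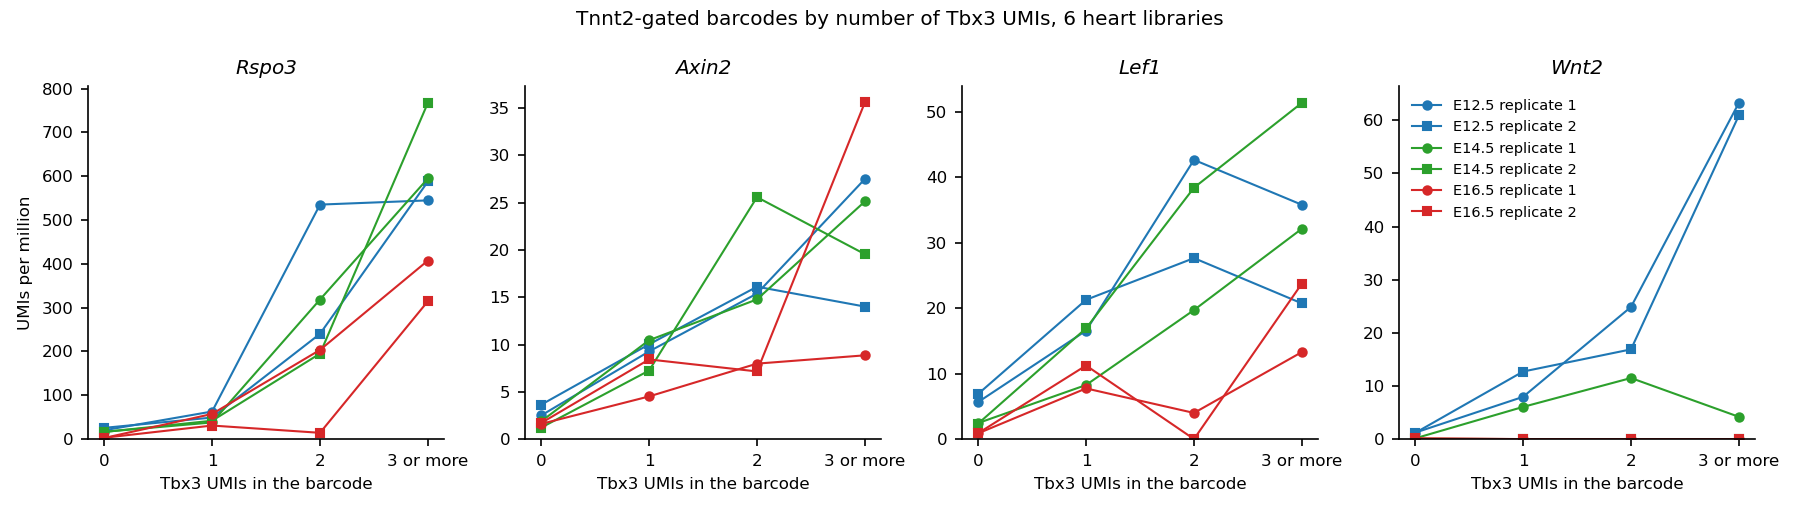
Levels of 4 genes in CPM (linear axes) in Tnnt2 barcodes grouped by their number of Tbx3 UMIs (0, 1, 2, 3 or more), 1 line per heart library from E12.5 to E16.5. Rspo3 reaches 315 to 768 in the group with 3 or more Tbx3 UMIs, against 2.47 to 25.6 in the group with 0.

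Within the Tbx3 class of the hearts, Axin2 had higher levels in barcodes that failed the Myl2 gate. Axin2 was at 31.6, 38.7, 58.0, 46.7, 22.3 and 52.6 CPM in the 6 libraries where Myl2 was low (12 to 59 barcodes), and at 10.1, 7.09, 5.41, 8.57, 1.80 and 4.71 where it was high (48 to 234 barcodes), without overlap. Since those barcodes are fewer, they held more of the class's Axin2 UMIs in 4 of 6 libraries only. Outside the Tbx3 class, too, Axin2 was higher without Myl2: Tnnt2 barcodes with neither gene held 4.47 to 11.2, against 0.968 to 2.79 in the Myl2 class. The canal and conduction genes were higher in those barcodes as well (82.6 to 265.5 against 18.7 to 50.01), and their part was not tested. Within the Tbx3 class, Wnt2 at E12.5 was 107 and 143 where Myl2 was low against 2.27 and 2.53 where it was high. At E14.5 it was 12.7 against 5.41 in the first library and 0 in both groups of the second. After 0 at E16.5, Wnt2 was at 18.2 (12 UMIs) against 0 in the P3 matrix. In embryos Wnt2 was likewise higher where Myl2 was low, at 236 against 109 (E8.5) and at 213 and 211 against 28.5 and 4.41 (E10.5). Axin2 was not in the E8.5 library (7.19 against 8.61) or the first at E10.5 (8.68 against 14.2). The embryo groups held 10 to 19 barcodes and 1 to 4 UMIs of Axin2 each, too few to tell a difference in Axin2 from counting error. In hearts Lef1 was higher where Myl2 was low in 5 of 6 libraries, the exception being the second E14.5 library (23.4 against 28.0). Rspo3 was not divided in this way, with 80.7 to 339 where Myl2 was low and 43.6 to 243 where it was high.

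At E10.5 the classes already differed in all 8 of the genes that could be tested, by an omnibus edgeR test over 5 classes in 2 libraries, and 64.3% of 8097 genes did. Wnt2 differed with the smallest adjusted p (2.63e-14, edgeR): Col1a1 barcodes of the 2 libraries held 133 and 180.1 CPM, Tnnt2 barcodes with Tbx3 111 and 93.1, Upk3b barcodes 65.2 and 59.6, Tnnt2 barcodes with Myl2 21.4 and 28.5 and Cdh5 barcodes 1.60 and 0.742. The Wnt2 level in Col1a1 barcodes was thus over 100 in both embryo libraries and under 1 in all 6 heart libraries. The 2 tissues differ, since embryo preparations include the trunk and the hearts do not, and stage and dissection cannot be told apart. Rspo1 was at 61.6 and 46.9 in Upk3b barcodes and nearly as high, 46.1 and 44.2, in Col1a1 barcodes of E10.5 embryos. Sfrp2 was at 18.5 and 23.0 in Col1a1 barcodes at E10.5, far under its 547 to 667 in E12.5 hearts, and Rspo3 reached 375 and 189 in Tnnt2 barcodes with Tbx3.

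In the single E8.5 library Wnt2 was at 201 CPM in Col1a1 barcodes, 187 in Tnnt2 barcodes with Tbx3, 97.0 in Upk3b barcodes and 57.3 in Tnnt2 barcodes with Myl2. Rspo3 was at 85.1 in Tnnt2 barcodes with Tbx3 and 57.8 in Col1a1 barcodes, while Rspo1 stood at 19.3 in Col1a1 and 10.1 in Upk3b barcodes. These rest on 21 to 55 barcodes per class and were not tested.

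Changes from E12.5 to E16.5 were tested within each class. In Tnnt2 barcodes with Myl2, 8 of 9 genes tested fell and 0 rose, where 31% of all genes fell, 32.7% rose and 63.7% changed. The largest falls on the log2 scale were those of Wnt2 (-2.97, SE 0.55), Lef1 (-2.97, SE 0.17, adjusted p = 3.93e-11, edgeR), Sfrp2 (-2.89, SE 0.23), Rspo3 (-2.83, SE 0.11, adjusted p = 5.92e-14) and Wnt5a (-2.01, SE 0.07). Wnt11 (-1.09), Sfrp1 (-1.02) and Axin2 (-0.99) fell less, and Wnt5b was at 0.29 (adjusted p = 0.167). Wnt2, Sfrp2 and Lef1 lay under the low-count level of the same library in all 6 sums of this class. Rspo3 was slightly above it at E12.5 and under it at E16.5 (2.62 and 2.76 CPM), and Wnt11 and Axin2 lay near theirs. Globin barcodes held less Lef1 (at most 0.541), Rspo3 (0.757), Wnt11 (0.324) and Axin2 (0.539) than any sum of this class. Their Wnt2 and Sfrp2 overlapped the class, and macrophage barcodes reached 3.69 for Lef1 and 2.75 for Axin2. Low-count barcodes fell as well, from 15.6 and 22.3 to 5.75 and 6.41 CPM in Rspo3, from 6.86 and 7.99 to 1.18 and 1.10 in Lef1 and from 11.7 and 21.5 to 4.90 and 5.96 in Wnt5a, and the part of free RNA in the falls was not tested. Wnt5a and Sfrp1 were above the low-count level of the same library in all 6 Myl2-class sums. Beside these changes, 5 atrial genes summed to 15819 and 14536 CPM in the class at E12.5 and to 3290 and 3228 at E16.5, and barcodes with under 1% mitochondrial UMIs made up 37.8% and 36.8% of the class at E12.5 and 7.3% and 5.3% at E16.5. All 8 falls held with those barcodes left out, and the part of the atrial genes was not tested.

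In Tnnt2 barcodes with Tbx3, 5 of 8 genes tested fell and 0 rose, against 9.01% falling, 11% rising and 20% changing among all genes. Wnt2 went from 288 UMIs at E12.5 (24.0 CPM) to 0 of 3047541 UMIs at E16.5, at least 24.4-fold lower against a floor of 3 counts over the group (adjusted p = 2.28e-07, edgeR). Wnt5a fell by 1.52 (SE 0.23), Lef1 by 1.27 (SE 0.29), Rspo3 by 1.14 (SE 0.14) and Sfrp1 by 1.00 (SE 0.13) on the log2 scale. The Lef1 call was lost without the first E16.5 library (-0.96, adjusted p = 0.194). Axin2 (-0.63, adjusted p = 0.183), Sfrp2 (-1.78, adjusted p = 0.0989) and Wnt11 (0.01) did not pass. The canal and conduction genes summed to 386 and 384 CPM in this class at E12.5 and to 244 and 330.3 at E16.5, with none of the 8 at 0, and their part in the falls was not tested.

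In Cdh5 barcodes 1 gene rose and 4 fell of 9 tested (21.5% and 21.7% of all genes, 43.3% in either direction). Wnt2 rose by 1.18 on the log2 scale (SE 0.26, adjusted p = 0.00128, edgeR), a call that was lost without the second E16.5 library (adjusted p = 0.0687), and Sfrp2 (-2.98), Wnt5a (-2.00), Sfrp1 (-1.25) and Wnt11 (-1.08) fell. For Sfrp2 the second E12.5 library was high (13.6 against 2.93 CPM in the first). Levels of both Sfrp2 and Sfrp1 lay under the low-count level in this class. Sfrp2 in that library was above the 0 to 2.68 of macrophage and the 0.386 to 3.97 of globin barcodes. Wnt5a went from 10.01 and 10.7 CPM to 3.65 and 1.45 in Cdh5 barcodes, under its low-count level of the same libraries (11.7 and 21.5, then 4.90 and 5.96). These Cdh5 levels were above the 0.173 to 0.649 of globin barcodes, and at E16.5 within the 0 to 4.75 of macrophage barcodes. The part of free RNA was not tested. Erythroid genes (7) varied widely between libraries, from 1533 to 15174 CPM in Cdh5, 1283 to 15157 in Col1a1 and 1210 to 29103 in Upk3b barcodes. In Cdh5 barcodes they were at 8554 and 3671 at E12.5 and at 6281 and 15174 at E16.5, and their part was not tested.

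In Col1a1 barcodes 1 gene rose and 6 fell of 9 tested (19.3% and 16.9% of all genes, 36.2% in either direction). Lef1 fell by 2.44 (SE 0.25, adjusted p = 4.88e-08, edgeR), Wnt5a by 1.77 (SE 0.15), Sfrp2 by 0.99 (SE 0.09) and Rspo3 by 0.75 (SE 0.15) on the log2 scale. Wnt11 (-0.80) and Sfrp1 (-0.25) passed with all libraries but not when a single library was left out, with Wnt11 at an adjusted p of 0.541 without the first E16.5 library. The rise of Rspo1 (1.45, SE 0.40, adjusted p = 0.00601) was likewise lost without that library (0.94, adjusted p = 0.164), and under stricter gates its sign turned (-0.16). Mesenchymal genes (8, none at 0) summed to 2869 and 2700.4 CPM in the class at E12.5 and to 9699 and 9365 at E16.5, and their part was not tested.

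In Upk3b barcodes 2 genes rose and 2 fell of 8 tested (16.1% and 12.4% of all genes, 28.5% in either direction). Rspo1 rose by 0.94 (SE 0.14, adjusted p = 2.76e-05, edgeR) and Wnt5a by 0.69 (SE 0.22), and Wnt11 (-1.22) and Sfrp1 (-0.62) fell. The Rspo1 rise was the single call of these 4 that held when each library was left out in turn. Wnt5a was lost without the first E16.5 library (0.17, adjusted p = 0.818) and without the first E12.5 library (adjusted p = 0.141), Sfrp1 without the first E16.5 library, and Wnt11 without the second (adjusted p = 0.177) or without the second E12.5 library (adjusted p = 0.119). The E16.5 libraries held 63 and 36 Upk3b barcodes. The epicardial genes summed to 691 and 683 CPM in this class at E12.5 and to 1791 and 1919 at E16.5, and the mesenchymal genes to 2265 and 2105 and to 10238 and 7991; their part was not tested.

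**Figure D4:**
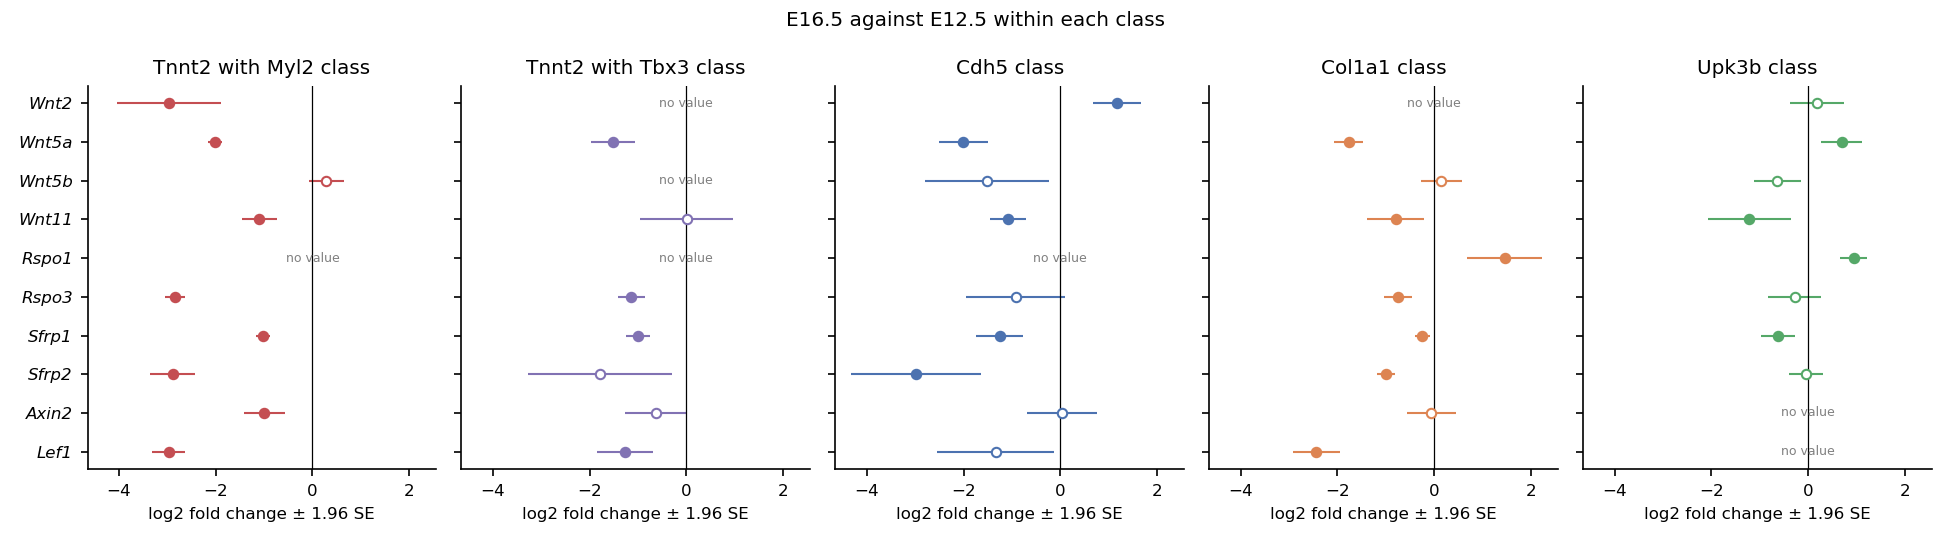
Log2 fold change from E12.5 to E16.5 within each class (points), from edgeR over the 6 heart libraries. Bars are approximate 95% intervals, taken from the SE by a normal approximation. Wnt2 in Tnnt2 barcodes with Tbx3, at 0 at E16.5, and genes that could not be tested have no point. In Tnnt2 barcodes with Myl2 the changes run from -2.97 to 0.29, and Rspo1 is to the right of 0 in both classes in which it was tested.

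The change with stage differed between the classes for 9 of the 10 genes (53.5% of all 13632 genes), and for Wnt11 it did not pass (adjusted p = 0.4997, edgeR). Wnt5a had the smallest adjusted p (1.45e-11), with falls in 4 classes, of which Cdh5 was under the low-count level, and a rise in Upk3b barcodes. Rspo3 (9.33e-11) fell by 2.83 in Tnnt2 barcodes with Myl2 and by 0.75 in Col1a1 barcodes on the log2 scale. Wnt2 (1.76e-09) fell in both Tnnt2 classes and rose in Cdh5 barcodes. Its test included the Tbx3 class at E16.5, which held 0 of its UMIs, and in the Myl2 class it lay under the low-count level.

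The wider pathway was read from 72 other genes in 7 lists by role. Of the 37 that could be tested between classes, 31 differed in Cdh5 barcodes (13 higher), 26 in Col1a1 barcodes (19 higher), 31 in Tnnt2 barcodes with Myl2 (15 higher), 23 in those with Tbx3 (14 higher) and 26 in Upk3b barcodes (16 higher). Of all genes 75.6%, 70.4%, 81.8%, 64.8% and 55.6% differed, in the same order of classes. Of 14 receptor genes tested, 12 differed in Cdh5, 8 in Col1a1, 12 in Tnnt2 with Myl2, 10 in Tnnt2 with Tbx3 and 12 in Upk3b barcodes. Fzd4, a Frizzled of blood vessels, was higher in Cdh5 barcodes by 1.78 (SE 0.06, adjusted p = 7.66e-28, edgeR) and Fzd6 by 2.35, while the Wnt5a receptor gene Ror1 (-3.92) and Fzd2 (-3.92) were lower there. Ror1 (1.70), its relative Ror2 (1.69) and Kremen1, a co-receptor of Dickkopf inhibitors (1.95), were higher in Tnnt2 barcodes with Myl2, and so they were in those with Tbx3 (1.54, 1.63 and 1.77). Fzd7 was lower in the Myl2 class (-2.76). Fzd7 (1.87), Nkd1, a feedback inhibitor (1.55), and Fzd5 (1.28) were higher in Upk3b barcodes. The Fzd7 call was lost without the first E16.5 library (1.11, adjusted p = 0.206) and the Fzd5 call without the second E14.5 library (adjusted p = 0.066). Dkk3, a divergent Dickkopf family gene, was higher in Col1a1 barcodes by 2.90 (SE 0.07).

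Against Tnnt2 barcodes with Myl2, those with Tbx3 differed in 18 of 45 of these genes, with 13 higher and 5 lower. Of all genes 41.4% differed, with 11.8% higher and 29.6% lower. Fzd7 was higher by 2.79 (SE 0.33, adjusted p = 2.55e-09, edgeR), and 2 further frizzled-related inhibitors, Sfrp5 (2.57) and Frzb (2.42), were higher as well. Sfrp5 was at 4.41 to 10.8 CPM in the Tbx3 class and at 0.454 to 1.64 in the Myl2 class. Nkd2 (-1.37), Fzd9 (-0.72) and Lrp5 (-0.53) were lower. The Fzd9 call was lost on leaving out any of 5 libraries (adjusted p of up to 0.141, without the first E16.5 library) and the Lrp5 call on leaving out any of 4 (up to 0.214, without the same library).

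With stage, 32 of 47 pathway genes changed in Tnnt2 barcodes with Myl2, 16 in each direction, against 6 of 36 in those with Tbx3, 17 of 39 in Cdh5 barcodes, 22 of 45 in Col1a1 barcodes and 10 of 29 in Upk3b barcodes. The shares of all genes that changed were 63.7%, 20%, 43.3%, 36.2% and 28.5%, in the same order of classes. Wif1, a secreted Wnt inhibitor, rose in Tnnt2 barcodes with Myl2 from 0.960 and 1.19 CPM at E12.5 to 9.11 and 9.26 at E16.5 (log2 fold change 3.23, SE 0.13, adjusted p = 1.31e-13, edgeR). It rose in the Tbx3 class by 2.62 (SE 0.44) and in Col1a1 barcodes by 4.58 (SE 0.90). Wnt4, a ligand gene, moved in opposite directions by class. In Cdh5 barcodes Wnt4 fell from 104 and 112 CPM to 24.1 and 26.9 (-2.17, SE 0.12), whereas in Col1a1 barcodes it rose from 1.65 and 0.993 to 8.68 and 7.60 (2.96, SE 0.38). The cell cycle gene Ccnd1 fell by 2.68 in the Myl2 class, by 1.25 in the Tbx3 class (a call lost without the first E16.5 library, adjusted p = 0.0789) and by 0.57 in Upk3b barcodes (lost without the second E12.5, the first E16.5 or the second E16.5 library, adjusted p = 0.0652, 0.0745 and 0.0795).

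For each gene the closest patterns over the 30 heart sums were sought among 9714 genes by Pearson's r of log2(CPM + 1), as a description without a test, since the sums share libraries and classes. Rspo1 was nearest to Egfl6 (r = 0.991) and Folr1 (0.985), Sfrp2 to Mfap4 (0.975), Wnt5b to Ctf1 (0.961), Sfrp1 to Stbd1 (0.956), Wnt5a to 1810058I24Rik (0.937), Rspo3 to Eid1 (0.932), Lef1 to Syt11 (0.914), Wnt11 to Uba7 (0.897) and Wnt2 to Podxl (0.852). Axin2 was nearest to Bmp2 (0.821), Rspo3 (0.805) and Shox2 (0.803), and Bmp2 was also second for Lef1 (0.878). With a pseudocount of 0.1 in place of 1, Bmp2 (0.819) and Rspo3 (0.782) remained among the 3 nearest to Axin2 and Shox2 did not, and Bmp2 was no longer among those of Lef1.

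A class with a high level need not hold most of the transcripts, since class sizes differ. Over the 6 hearts the Myl2 class held 278524389 UMIs of all genes, and the Tbx3 class 20140560. Cdh5 barcodes held 60331490, Col1a1 barcodes 30439443 and Upk3b barcodes 12511964. Outside the classes, ungated barcodes held 55137862, globin barcodes 51619161 and Tnnt2 barcodes with neither gene 27189466. The shares below follow these sizes as well as the levels. Averaged over the 6 hearts, Upk3b barcodes held 84.4% of all Rspo1 UMIs in barcodes of at least 2000 UMIs (78.0 to 91.9% by library). Tnnt2 barcodes with Myl2 held 68.8% of the Sfrp1 UMIs and 55.7% of the Wnt5a UMIs, although their Wnt5a level was below that of Upk3b barcodes in all 6 libraries. Rspo3 was divided between Tnnt2 barcodes with Tbx3 (28.3%, 13.6 to 38.9% by library), those with Myl2 (26.6%, 19.9 to 32.6%) and Col1a1 barcodes (20.7%, 6.20 to 42.8%). Col1a1 barcodes held 56.7% of Sfrp2 (22.4 to 88.8%), with 35.6% in barcodes outside the classes. Cdh5 barcodes held 45.02% of Wnt2 (15.5 to 65.7%).

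**Figure D5:**
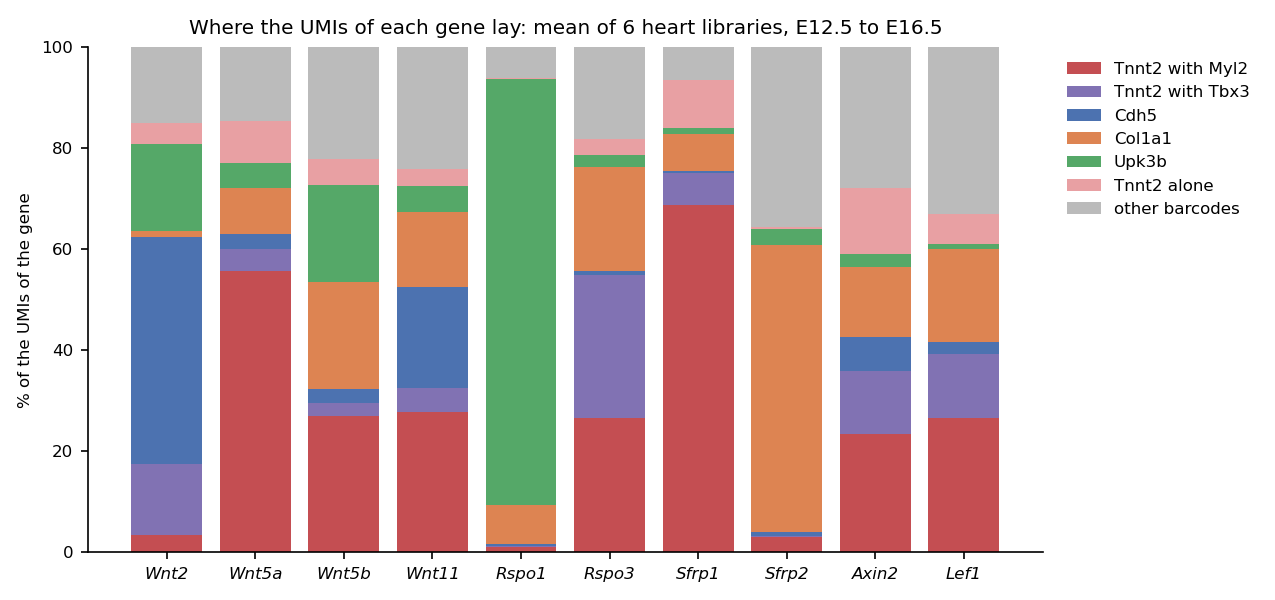
Share of each gene's UMIs, in percent of those in barcodes of at least 2000 UMIs, by class, averaged over the 6 heart libraries from E12.5 to E16.5. Rspo1 lies mostly in Upk3b barcodes (84.4%), Sfrp1 in Tnnt2 barcodes with Myl2 (68.8%), and Rspo3 in several classes.

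In the P3 matrix, Rspo1 (340.5 CPM), Wnt5a (139.5) and Sfrp1 (210.4) in 21 Upk3b barcodes, and Sfrp2 (761) and Sfrp1 (283) in 1603 Col1a1 barcodes, were above both E16.5 libraries in those classes, apart from Rspo1, which lay between them. Rspo3 in Tnnt2 barcodes with Tbx3 (16.8), Sfrp1 in Tnnt2 barcodes with Myl2 (41.8) and Lef1 in both Tnnt2 classes (2.78 and 0.103) were below both E16.5 libraries. The median mitochondrial share of UMIs was 23.3% in the Myl2 class and 18.5% in the Tbx3 class at P3, against 10.7 and 11.1% and 8.35 and 8.83% at E16.5, and the study's mitochondrial ceilings would leave 1331 of the 5622 Myl2-class and 167 of the 276 Tbx3-class barcodes at P3. The part of these shares was not tested. With 1 matrix at P3 these differences have no replicate check. The paper saw significant batch differences at P3 alone, and the records pooled in this matrix were not separated here.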

How the data were processed

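The authors deposited matrices of UMI counts per gene and barcode for 10 libraries on mm10. The matrix headers name Cell Ranger 3.1.0 (3.0.0 for P3), whereas the submitters' processing notes name Cell Ranger 2.1.1 and Seurat 3.1.1. The labels give trypsin digestion and v2 chemistry, the paper collagenase and v3. The E8.5 library labelled replicate 1 is not analysed here.

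Barcodes of at least 2000 UMIs were gated as described, at 10 UMIs per 10000 for Tnnt2 and Myl2, 1 UMI for Tbx3, 2 for Cdh5 and Upk3b, and 5 per 10000 with at least 2 UMIs for Col1a1. Removing barcodes of mixed lineage was the treatment of doublets, and no caller was run. Counts were summed per class and library (at least 10 barcodes) and tested in edgeR 4.0.16 (quasi-likelihood, trimmed mean of M-values, low counts filtered) at an adjusted p threshold of 0.05 under R 4.3.3. The class fit held stage by class with library as a term, and a gene at 0 in any stage-by-class group that a class contrast uses was left out of that contrast (the direct contrast of the Tnnt2 classes uses the groups of those classes only). SE is the log2 fold change divided by the root of F. Intervals of fold changes were taken from the SE by a normal approximation, which can be too narrow with few libraries. DESeq2 1.42.0 was an alternative. Scripts were tested on simulated data. Gene positions follow GRCm38.

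The same replicate number went with shared deviations in Tnnt2 barcodes with Myl2 (r = 0.17, 0.19 and 0.35 between stages), while in each other class at least 1 of the 3 correlations was under 0.1 (Cdh5 0.34, 0.20 and 0.05), and the labels name no shared litter or day. Named genes were the 10, up to 3 pathway genes with the largest rise and fall per contrast, and the 3 genes most alike. The members and lists were chosen with earlier results of these data known. Floors and the intervals of levels and shares cover counting error only.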

Additional observations from a re-analysis of the deposited data

Results flagged for a closer look

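The change from E12.5 to E16.5 differed between the 5 classes for 9 genes, by the interaction of stage and class in edgeR over 30 class sums (53.5% of all genes passed the same test).

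Wnt5a (adjusted p = 1.45e-11) fell in 4 classes, by 1.52 to 2.01 on the log2 scale, of which the Cdh5 class lay under the low-count level, and rose by 0.69 in Upk3b barcodes, a rise that was lost without the first E16.5 library. Rspo3 (adjusted p = 9.33e-11) fell by 2.83 in Tnnt2 barcodes with Myl2 and by 1.14 in those with Tbx3. Wnt2 (adjusted p = 1.76e-09) fell in both Tnnt2 classes and rose by 1.18 in Cdh5 barcodes, a rise that shrank to 0.63 without the second E16.5 library. For Wnt2 the test included the Tbx3 class at E16.5, which held 0 UMIs, and the Myl2 class, which lay under the low-count level. The interaction test passed for these 3 genes whichever library was left out.

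Sfrp1 (adjusted p = 9.33e-09) fell in each class, by 0.25 in Col1a1 barcodes and by 1.25 in Cdh5 barcodes, where its levels were in the background range. The Col1a1 call was lost without the first (adjusted p = 0.0634) or the second E16.5 library (0.107), and the Upk3b call without the first (0.270). Sfrp2 (adjusted p = 1.43e-05) fell by 2.89 in Tnnt2 barcodes with Myl2, where it lay under the low-count level in all 6 libraries, and by 0.99 in Col1a1 barcodes, while its change in Upk3b barcodes was -0.05.

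The other 4 rested on single libraries. Axin2 (adjusted p = 0.000978) was lost without the first E16.5 library (0.203), and Rspo1 (0.0125) without the first E12.5 library (0.139). Wnt5b (0.0138) was lost without the second E12.5 library (0.0820) or the second E16.5 library (0.166). Lef1 (0.0245) was lost without the second E12.5 library (0.0917), the first E16.5 library (0.0534) or the second E16.5 library (0.353).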

How the results depend on the processing

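Of the results compared over the alternatives, 2882 kept their side of the threshold and, if called, their direction. A further 130 lost their call, 27 gained one and 3 turned in sign. The 3 were Wnt5a in Tnnt2 barcodes with Myl2 against the other classes under the study's mitochondrial ceilings (-0.026) and after thinning (-0.24), and the stage change of Rspo1 in Col1a1 barcodes under stricter gates (-0.16). The 2882 include 8 lists of most alike genes, which have no direction or threshold. Results that could not be tested under an alternative are not counted. Thinning every barcode to 2000 UMIs left 3 of the 10 genes called in Tnnt2 barcodes with Myl2, 3 in those with Tbx3, 4 in Cdh5, 3 in Col1a1 and 1 in Upk3b barcodes, 5 in the test of stage by class and 3 at E10.5. For stage it left 2 in Tnnt2 barcodes with Tbx3, 2 in Cdh5, 3 in Col1a1 and 1 in Upk3b barcodes. Fewer of the genes could be tested at that depth, as of all genes, with 7538 against 11425 tested between classes and 10137 against 13632 for stage by class. Stricter gates gave 4 calls in Tnnt2 barcodes with Tbx3 and 5 in Col1a1 barcodes between classes, and 3 in each of these classes for stage; looser gates gave 2 for stage in Upk3b barcodes. DESeq2 gave 1 call for stage in Upk3b barcodes, and leaving out the filter on low counts gave 8 calls for Upk3b barcodes against the other classes. Over all genes, the 2053 called for stage in Tnnt2 with Tbx3 barcodes became 1049 with DESeq2, 755 with stricter gates and 974 without the first E16.5 library. The 4205 in Col1a1 barcodes became 2510 with DESeq2 and 1838 with stricter gates, and the 2304 in Upk3b barcodes became 1252 with DESeq2 and 1140 without the first E16.5 library. After thinning, genes called for stage within a class ran from 398 of 4255 (Tnnt2 with Tbx3) to 5368 of 10965 (Tnnt2 with Myl2), with 473 of 2152 in Upk3b barcodes. In a class against the others they ran from 2048 (Upk3b) to 4868 (Tnnt2 with Myl2) of 7538. The test of stage by class called 2572 of 10137, and that at E10.5 1161 of 2280. Stricter gates called 5501 of 10610 genes in Tnnt2 with Tbx3 and 5796 in Col1a1 barcodes between classes. Looser gates called 2106 of 8131 for stage in Upk3b barcodes, and leaving out the filter 6642 of 11506 in Upk3b barcodes against the others. The cause was not tested.

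Leaving out each library in turn gave 6 to 9 calls in Cdh5, Col1a1 and Tnnt2 with Myl2 barcodes against the other classes, 4 to 7 in Tnnt2 with Tbx3 barcodes, 2 to 7 in Upk3b barcodes, 4 to 5 between the Tnnt2 classes and 7 to 9 for stage by class. For stage it gave 5 to 6 calls in Cdh5, 4 to 6 in Col1a1, 8 in Tnnt2 with Myl2, 4 to 5 in Tnnt2 with Tbx3 and 2 to 5 in Upk3b barcodes. The 4 for Tnnt2 with Tbx3 and the 2 for Upk3b barcodes between classes, and the 4 for Col1a1 and the 2 for Upk3b barcodes with stage, came without the first E16.5 library. Without it 6 of the 10 genes could be tested between classes, and over all genes 4780 of 10258 were called in Upk3b and 5601 of 10258 in Tnnt2 with Tbx3 barcodes. With the replicate number as a block, the Wnt11 fall in Col1a1 barcodes (-0.73, adjusted p = 0.0613, edgeR) was lost and no other call for stage changed. With a pseudocount of 0.1, only 1 of the 3 genes most like Wnt5b and most like Lef1 remained. Leaving out barcodes under 1% mitochondrial UMIs was chosen after seeing the data. Depth limits Wnt2, Wnt5b, Wnt11 and Axin2, which lay at or near the low-count level in several classes. Globin barcodes held at most 0.134, 0.449, 0.324 and 0.539 CPM of these genes, in that order, and macrophage barcodes up to 2.75 of Axin2. The measures of free RNA thus differ.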
